A study of Mus musculus with 21 samples.

Results

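Gene expression of macrophages held for 24 h with FcMR was set against that of the same kind of culture before any treatment. The comparison takes 6 of the study's 21 libraries, chosen by their titles: 3 labelled FcMR at 24 h and 3 labelled untreated at 0 h. All groups are marrow cells of C57BL/6J mice that had grown for 7 days with 2.5% supernatant from cells making GM-CSF. The series describes the macrophages as deficient in the mannose receptor (MR), so the untreated and isotype groups carry that deficiency as well. FcMR joins the Fc part of human IgG1 to the extracellular part of MR, and the series uses it to ask how soluble MR acts on macrophages. A further group, 3 libraries of cells given the isotype control protein for the same 24 h, is used beside it, and the 3 FcMR libraries each of 4 h and 12 h give the course in time. Untreated cells were analysed at 0 h only, so FcMR and 24 h of further culture cannot be told apart in the main comparison. The isotype libraries of 24 h share that culture time, and a test of FcMR 24 h against them is therefore given for many of the genes and lists. A change given without an isotype value is one against untreated alone. The labels name no age or sex, and they do not say whether replicates came from separate mice or cultures. The p-values then measure the spread between these libraries, which may be technical.

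MR is a C-type lectin of macrophages and dendritic cells that binds sugars on microbes and on the body's own glycoproteins, and its extracellular part can be shed into the blood. Macrophages that meet an inflammatory stimulus first transcribe cytokines and chemokines through NF-kB, and then antiviral and antigen-presentation genes through interferon. Later they change lipid, amino acid and energy metabolism. Cultures grown in GM-CSF hold macrophages with dendritic-cell traits, along with some granulocytes and cycling precursors.

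Mrc1, the MR gene, had 3, 9 and 3 counts in the untreated libraries and 0, 4 and 2 in those of FcMR 24 h, too few for the test. The 6 libraries held 7951434 to 26310320 counts, and 3 counts equal 0.114 to 0.377 CPM, the unit of level used here (counts relative to each library's total after scaling). Macrophage markers were present throughout: all 10 genes of that list exceeded 1 CPM in both groups, and their summed level, most of it from Lyz2, was 29201.5 to 29860.7 CPM in untreated, 27617.1 to 30000.8 in FcMR 24 h and 35055.5 to 39232.4 in isotype 24 h libraries. The 10 neutrophil markers summed to 1426.4 to 1659.7 CPM in untreated, 225.7 to 247.3 in FcMR 24 h and 203.5 to 238.6 in isotype 24 h libraries. The 8 eosinophil, basophil and mast cell markers summed to 655.0 to 867.8, 69.1 to 105.3 and 75.8 to 116.3 CPM in the same order. T and NK cell, B cell, fibroblast, endothelial and erythroid lists summed to at most 66.1 CPM in any of these libraries. Libraries also differed in GC tilt, the level of the 10% most GC-rich genes relative to the 10% most GC-poor on the log2 scale: it was 0.80, 0.04 and 0.46 in untreated and −0.36, −1.37 and 0.40 in FcMR 24 h replicates 1 to 3. The part of granulocytes and of GC tilt in the results was not tested. In bulk RNA, fewer cells of a type and less RNA per cell cannot be told apart. Estimated counts are uncertain for genes that overlap an annotated gene on the opposite strand, since no use of strand is given in the sources used here. Among the genes below these are Acsl1, Arg2, Bhlhe41, C1s1, Ccl2, Ccl6, Cish, Ctsz, Cx3cr1, Cyp4a12b, Fcgrt, Fyn, H2-DMa, Hif1a, Hmgcs1, Hpgds, Il18bp, Il1b, Il1r2, Il6ra, Irak3, Irf5, Irf7, Itga4, Itgae, March1, Mitf, Mki67, Mlkl, Mmp19, Ms4a4c, Nlrc5, Pfkfb3, Pla2g4a, Psat1, Rfx5, Slc1a2, Slc7a2, Slc7a5, Synpo2, Thbs1, Tk1, Tlr3, Tnfsf9, Ube2c and Vcam1.

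At 24 h, 6918 of the 13468 genes tested differed between FcMR and untreated cells at an edgeR adjusted p under 0.05 (51.4%). Of these, 3500 were higher (26.0% of the genes tested) and 3418 lower (25.4%). A list with such shares of its genes called does not stand out from all genes. Changes of at least 4-fold were called for 561 genes that were higher and 647 that were lower. For 7557 genes (56.1%) all libraries of either group lay on one side of the other, and the median log2 fold change of all genes was −0.03. Isotype 24 h against untreated called 5690 genes (42.2%), 21.3% of all genes higher and 20.9% lower, with a median of −0.04. This comparison uses the same untreated libraries, so its values stand beside those of FcMR and are no independent check of them. Between FcMR 24 h and isotype 24 h, 2813 genes differed (20.9%), 1541 higher with FcMR (11.4%) and 1272 lower (9.44%). Against FcMR 4 h, 6681 genes had changed by 24 h (49.6%), 25.9% of all genes higher and 23.7% lower. Values given with "by" are log2 fold changes. For 33 gene lists the report gives how many tested genes were called in each direction and their median log2 fold change.

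**Figure D1:**
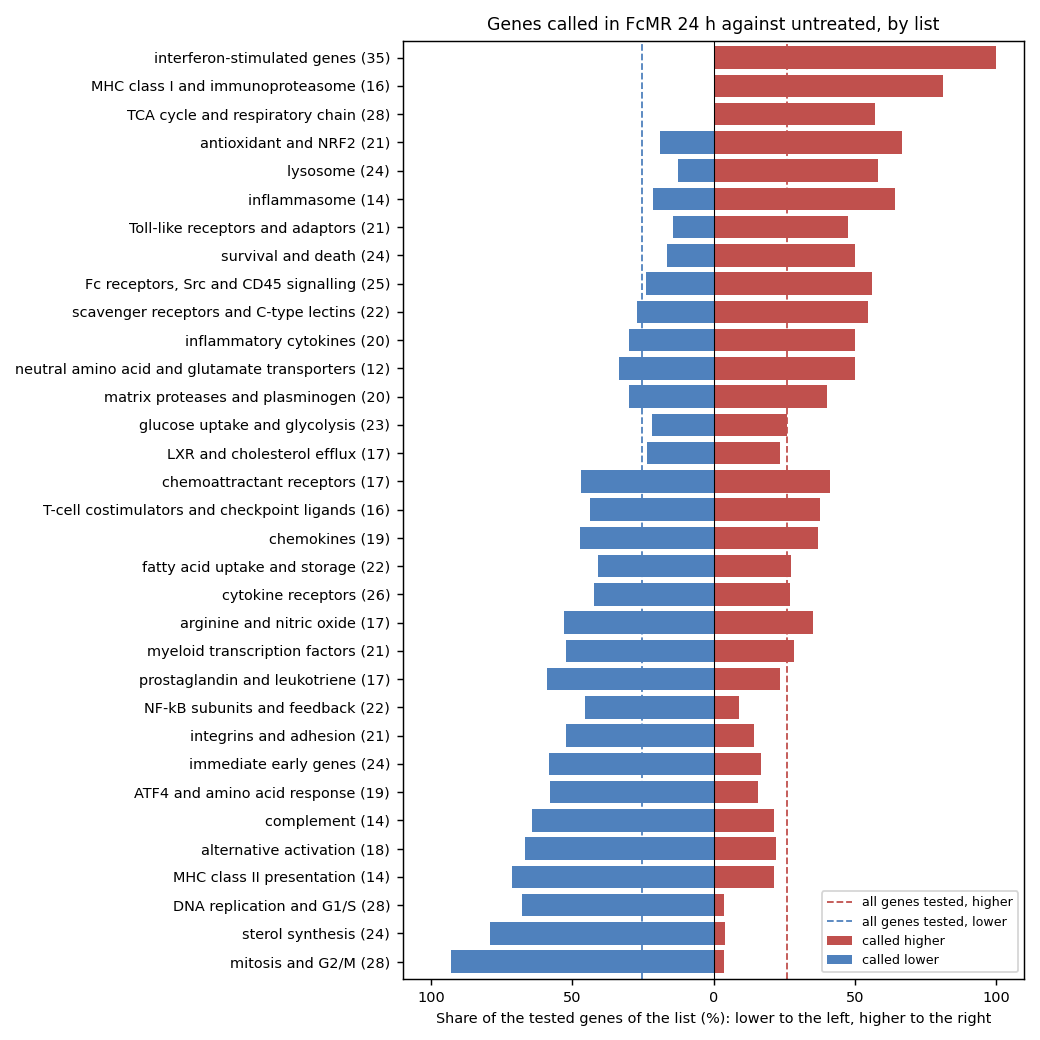
Share of the tested genes of each list (number in parentheses) called higher (red, to the right) or lower (blue, to the left) in FcMR 24 h against untreated, in percent. Dashed lines are the shares over all genes tested, 26.0% higher and 25.4% lower, and the interferon list (35 of 35 higher) and the mitosis list (26 of 28 lower) lie farthest from them.

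Inflammatory cytokine genes stood at very different points at 24 h: those of IL-1, IL-6 and IL-12 remained far above the untreated level, while Tnf had dropped below it. Of 20 cytokine genes, 10 rose and 6 fell, with a median log2 fold change of 1.09. Il1b (ENSMUSG00000027398.13, chr2:129364570-129371139), the main pyrogenic cytokine that inflammasomes release, was at 90.7, 116 and 107 CPM in the untreated libraries and at 1891, 2134 and 1664 CPM in those of FcMR 24 h. All FcMR libraries lay above all untreated ones, and the log2 fold change was 4.18 (SE 0.16, edgeR adjusted p = 8.62e-13). Il6 (ENSMUSG00000025746.11, chr5:30013114-30019981), the cytokine that drives the acute-phase response of the liver, went from 1.85, 3.31 and 3.27 to 55.9, 93.9 and 47.1 CPM. The groups were again apart, by 4.51 (SE 0.27, edgeR adjusted p = 2.25e-10). Il12b (ENSMUSG00000004296.14, chr11:44400063-44414033), the subunit that IL-12 and IL-23 share, went from 12.1, 14.3 and 12.1 to 479.8, 616 and 419 CPM, a log2 change of 5.29 (SE 0.18, edgeR adjusted p = 2.23e-13). Its partner in IL-12, Il12a, went from 0, 0.184 and 0.0817 to 10.1, 13.6 and 12.8 CPM. Every FcMR library exceeded 10 CPM where no untreated library reached 0.2, and the log2 fold change was 6.68 (SE 0.30, edgeR adjusted p = 5.02e-12), or 7.86 without untreated replicate 2. Il10, which restrains inflammation, stayed low at 2.36, 1.58 and 1.1 CPM, against 0.0972, 0.184 and 0 CPM untreated. It still rose by 3.83 (SE 0.47, edgeR adjusted p = 2.48e-06), or by 5.0 without untreated replicate 2.

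Tnf (ENSMUSG00000024401.14, chr17:35199381-35202007), usually among the first cytokines of activated macrophages, was at 162, 154 and 165 CPM in untreated and 60.3, 69.3 and 73.8 CPM in FcMR 24 h libraries. Every FcMR library lay below every untreated one, a log2 change of −1.24 (SE 0.11, edgeR adjusted p = 2.91e-08). Tnf had been at 5790.0 ± 284 CPM (mean ± SD, n = 3) with FcMR at 4 h and at 485 ± 24.8 CPM at 12 h. Tgfb1, an immunosuppressive growth factor, went from 310.0, 195 and 258 to 79.3, 65.3 and 125 CPM, a log2 change of −1.51 (SE 0.32, edgeR adjusted p = 0.000811). Csf3, a granulocyte growth factor, was under 1 CPM in every library of both groups and fell by 2.34 (edgeR adjusted p = 0.00830). All 20 cytokine genes were lower at 24 h than at FcMR 4 h, where 23.7% of all genes were lower. Il6, for example, had been at 1314 ± 23.6 CPM at 4 h.

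With isotype at 24 h the cytokine median was −0.66, with 5 genes higher and 11 lower than untreated, and 12 of the 20 were higher with FcMR than with isotype while 1 was lower. Il1b was at 83.3, 91.4 and 100.0 CPM in the isotype libraries, overlapping the untreated libraries, and FcMR exceeded isotype by 4.37 (SE 0.16, edgeR adjusted p = 5.19e-12). Il6 was at 5.49, 6.22 and 7.08 CPM with isotype, between the other groups, and differed by 3.40 (SE 0.26, edgeR adjusted p = 2.63e-08). For Il12b the isotype libraries held 68.2, 88 and 84.8 CPM, a difference of 2.65 (SE 0.16, edgeR adjusted p = 1.78e-09). Tnf was lower still with isotype, at 42.4, 46.3 and 50.6 CPM, so that FcMR exceeded isotype by 0.55 (SE 0.11, edgeR adjusted p = 0.00107) although both lay below untreated.

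**Figure D2:**
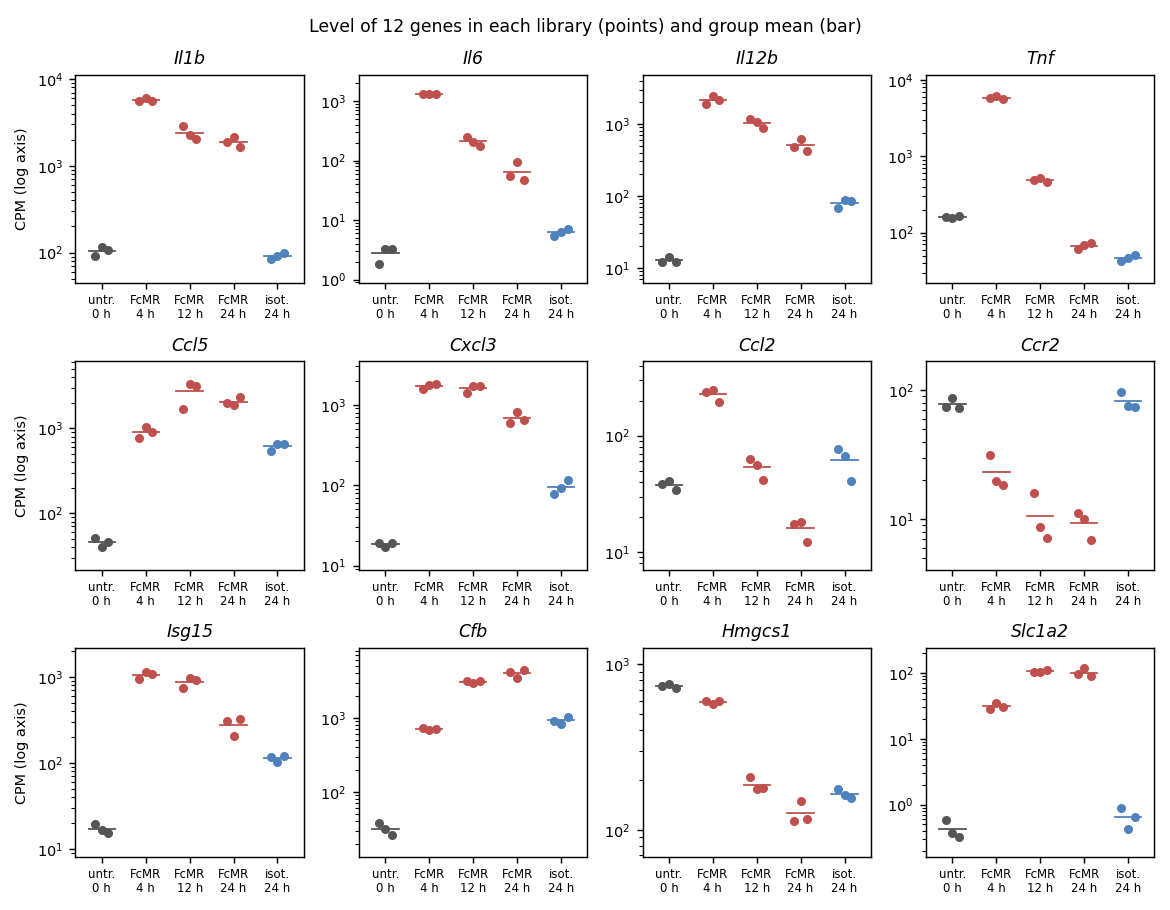
Level in CPM (log axis) of 12 genes in each library of untreated cells (grey), FcMR at 4, 12 and 24 h (red) and isotype at 24 h (blue), with the group mean as a bar. Il1b, Il6 and Il12b fell from 4 h to 24 h yet stayed above untreated, Tnf fell below it, and Slc1a2 was high with FcMR and near its untreated level with isotype.

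Chemokine genes went both ways. Of 19, 7 rose and 9 fell, with a median log2 fold change of −0.61. Ligands of neutrophils and T cells were among those that rose. Cxcl5, a neutrophil attractant, had 1, 1 and 0 counts in the untreated libraries and 19.2, 34.6 and 21.5 CPM in FcMR 24 h libraries, 639-fold more (95% exact interval 177 to 5285, counting error only). Cxcl3, of the same class, went from 19.3, 16.9 and 19.4 to 594, 819 and 652 CPM, a log2 change of 5.22 (SE 0.29, edgeR adjusted p = 8.14e-11). Ccl5, which attracts T cells and monocytes, went from 51.5, 40.5 and 45.9 to 1986, 1911 and 2328 CPM, by 5.50 (SE 0.34, edgeR adjusted p = 3.65e-10). Every FcMR library of these genes exceeded every untreated one. Ccl22, a ligand of CCR4, rose by 1.67 (SE 0.11, edgeR adjusted p = 7.15e-10), while Ccl17, the other ligand of that receptor, went from 892, 861 and 599 down to 73.8, 61.1 and 78.9 CPM, a log2 change of −3.46 (SE 0.21, edgeR adjusted p = 2.57e-10).

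Ccl2 and Ccl7, attractants of monocytes, fell. Ccl2 (ENSMUSG00000035385.5, chr11:82035571-82037453) was at 38.3, 40.4 and 34.2 CPM in untreated and 17.4, 18.2 and 12.3 CPM in FcMR 24 h libraries. All FcMR libraries lay below the untreated ones, a log2 change of −1.23 (SE 0.26, edgeR adjusted p = 0.000675), although Ccl2 had been at 226 ± 28.8 CPM at 4 h. Ccl7, which like Ccl2 acts on CCR2, went from 7.97, 8.69 and 7.44 to 1.13, 1.25 and 0.975 CPM, a log2 change of −2.80 (SE 0.31, edgeR adjusted p = 8.29e-07). Ccl6 fell from 7034, 7259 and 6936 to 1353, 1347 and 1116 CPM. Ccl3 fell by 0.61 (SE 0.11, edgeR adjusted p = 0.000121). In isotype libraries Ccl2 stood at 76.7, 67.3 and 41.1 CPM, above untreated by 0.72 (SE 0.25, edgeR adjusted p = 0.0274), and FcMR was below isotype by a log2 change of −1.94 (SE 0.26, edgeR adjusted p = 2.44e-05). Ccl7 was at 10.8, 7.5 and 5.66 CPM with isotype, overlapping untreated, and FcMR differed from isotype by a log2 change of −2.80 (SE 0.32, edgeR adjusted p = 3.83e-06). Ccl3 did not pass the test between FcMR and isotype, with a difference of 0.05 (SE 0.11, edgeR adjusted p = 0.804). Over the whole list, 10 genes were higher and 4 lower with FcMR than with isotype.

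Of 17 chemoattractant receptor genes, 7 rose and 8 fell, with a median of −0.58. Ccr2 (ENSMUSG00000049103.14, chr9:124101950-124113557), the receptor that brings monocytes out of the marrow, was at 73.7, 87.3 and 72.7 CPM in untreated, 11.2, 9.96 and 6.95 in FcMR 24 h and 97.7, 75.8 and 74 in isotype 24 h libraries. The FcMR libraries lay below all libraries of the other groups, a log2 change of −3.04 (SE 0.36, edgeR adjusted p = 1.66e-06) against untreated and by a log2 change of −3.13 (SE 0.36, edgeR adjusted p = 4.72e-06) against isotype. The formyl peptide receptors, which sense bacterial peptides, went up: Fpr2 from 27, 25.7 and 23.3 to 303, 371 and 248 CPM, by 3.60 (SE 0.16, edgeR adjusted p = 4.98e-12), and Fpr1 by 1.95 (SE 0.16, edgeR adjusted p = 1.80e-08). Cx3cr1, the fractalkine receptor, rose from 1.85, 2.62 and 3.76 to 10.2, 10.7 and 11.2 CPM, by 1.95 (SE 0.19, edgeR adjusted p = 1.53e-07), and was at 12.1, 11.1 and 8.75 CPM with isotype. Its FcMR and isotype libraries overlapped. Cxcr2, a receptor typical of neutrophils, fell by 2.45 (SE 0.31, edgeR adjusted p = 3.85e-06), and C5ar2, another receptor of complement C5a, a log2 change of −2.72 (SE 0.35, edgeR adjusted p = 4.53e-06). Among 26 cytokine receptor genes 7 rose and 11 fell, with a median of −0.26. Il1r2, the decoy receptor of IL-1, had the deepest fall that the naming rule takes from this list, from 418, 477 and 418 to 10.2, 15.8 and 11 CPM, and was lower still with isotype, at 4.81, 4.5 and 3.99 CPM. Il18r1 fell by 3.07 (SE 0.21, edgeR adjusted p = 1.49e-09) and Il6ra by a log2 change of −2.25 (SE 0.11, edgeR adjusted p = 2.80e-11). Il1r1, the signalling receptor of IL-1, rose by 1.33 (SE 0.25, edgeR adjusted p = 0.000253), Ifnar2, a subunit of the type I interferon receptor, by 1.27 (SE 0.08, edgeR adjusted p = 4.44e-10), and Il21r by 1.25 (SE 0.14, edgeR adjusted p = 1.05e-06).

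Most genes of NF-kB itself and of its inhibitors were at or below the untreated level. Of 22 such genes, 2 rose and 10 fell (median −0.68), all 22 were lower than at FcMR 4 h, and 10 were higher than with isotype, where the median was −1.23. Nfkb1, the p50 subunit, was at 384, 372 and 401 CPM untreated and 158, 143 and 174 CPM with FcMR, with no overlap, a log2 change of −1.29 (SE 0.12, edgeR adjusted p = 4.76e-08). Cish, a STAT5-induced suppressor, fell by 2.93 (SE 0.22, edgeR adjusted p = 6.39e-09), and Nfkbid by a log2 change of −2.05 (SE 0.19, edgeR adjusted p = 7.13e-08). The genes that rose were Irak3, an inhibitor of Toll-like receptor signalling, by 1.73 (SE 0.08, edgeR adjusted p = 1.73e-11), and Traf1, by 1.43 (SE 0.17, edgeR adjusted p = 1.27e-06). After correction for GC content 6 genes of this list were called higher. In the Toll-like receptor list 10 of 21 rose and 3 fell (median 0.30). Tlr1, which pairs with TLR2 for bacterial lipopeptides, went from 2.23, 2.76 and 2.04 to 80.1, 105 and 74.2 CPM, by 5.18 (SE 0.18, edgeR adjusted p = 2.05e-13). Tlr3, the sensor of double-stranded RNA, rose by 3.13 (SE 0.25, edgeR adjusted p = 1.19e-08) and Tlr8 by 1.68 (SE 0.19, edgeR adjusted p = 1.04e-06). Tlr9, the DNA sensor, fell from 28.7, 27.3 and 20.8 to 5.86, 5.59 and 7.8 CPM, a log2 change of −2.01 (SE 0.21, edgeR adjusted p = 3.03e-07), and Tlr2 fell by 0.51 (SE 0.09, edgeR adjusted p = 0.000221). Each of these receptors had moved in the same direction with isotype, by 4.14, 2.84, 2.50, −1.39 and −2.27 in that order.

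Promoters were looked up in RefSeq (build GRCm38.p6) as the 250 bases before each gene's start, which were found for 9821 of the 13468 genes tested. The core of the NF-kB binding motif was searched on both strands as GGGNNTTTC. A gene was counted when any of its promoters held a match. That was so for 5 of 11 chemokine genes (45.5%) and 3 of 13 cytokine genes (23.1%), against 4.54% of the genes tested that had a promoter. Both lists hold genes that rose and genes that fell, and the matches were not split by direction. In the DNA replication list, which fell, 3 of 22 genes (13.6%) held the core. The promoters of Il6 and Cxcl3, a cytokine and a chemokine that rose, are shown because each holds such a match, in capitals. A match is a description of letters, not a shown binding site.
Il6 (chr5:30012864-30013113, plus strand): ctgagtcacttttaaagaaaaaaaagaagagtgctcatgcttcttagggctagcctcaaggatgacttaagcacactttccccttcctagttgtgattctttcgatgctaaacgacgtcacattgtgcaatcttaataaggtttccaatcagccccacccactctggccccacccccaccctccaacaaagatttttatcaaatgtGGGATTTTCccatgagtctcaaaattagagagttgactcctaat
Cxcl3 (chr5:90785851-90786100, plus strand): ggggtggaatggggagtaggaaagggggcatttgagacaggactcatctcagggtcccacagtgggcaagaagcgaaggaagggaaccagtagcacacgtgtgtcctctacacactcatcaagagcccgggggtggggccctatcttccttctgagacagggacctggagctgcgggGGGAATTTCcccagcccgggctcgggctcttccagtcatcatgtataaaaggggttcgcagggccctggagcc

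The list of interferon-stimulated genes was the most uniform of the lists. All 35 genes of the list rose, where 26.0% of all genes were called higher, and their median log2 fold change was 3.28 against −0.03 for all genes. Isg15 (ENSMUSG00000035692.6, chr4:156199424-156200818), a ubiquitin-like antiviral protein, was at 19.7, 16.7 and 15.2 CPM in untreated and 304, 207 and 328 CPM in FcMR 24 h libraries, a log2 change of 4.03 (SE 0.25, edgeR adjusted p = 4.19e-10). Ifi44 went from 1.36, 0.736 and 0.327 to 80.6, 96.2 and 57.4 CPM, by 6.64 (SE 0.33, edgeR adjusted p = 1.80e-11). Irf7, the transcription factor that amplifies type I interferon, went from 10.8, 8.33 and 8.26 to 481, 355 and 616 CPM, by 5.74 (SE 0.33, edgeR adjusted p = 1.40e-10), and Oasl2, of the oligoadenylate synthetase-like proteins, by 5.36 (SE 0.11, edgeR adjusted p = 6.47e-16). The FcMR libraries exceeded the untreated ones without overlap in each of the 4 genes.

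The rise was shared by the isotype cells, in which all 35 genes were also called higher with a median of 2.15. Isg15 was at 117, 104 and 121 CPM with isotype and Irf7 at 312, 292 and 337 CPM. FcMR exceeded isotype in 25 of the 35 genes and was below it in none, where 11.4% of all genes were higher with FcMR. The difference was 1.29 (SE 0.22, edgeR adjusted p = 0.000346) for Isg15 and 1.53 (SE 0.23, edgeR adjusted p = 9.08e-05) for Ifi44, and 0.62 (SE 0.26, edgeR adjusted p = 0.112) for Irf7, which did not pass. Against FcMR 4 h, 30 of the 35 had fallen and 1 had risen. The list was called as 35 higher and 0 lower under all 17 alternative settings. It leaves out the interferon-inducible chemokine genes, which are in the chemokine list and did not move together. Cxcl9 rose by 3.52 (edgeR adjusted p = 1.59e-10), Cxcl10 had a log2 change of −0.82 (edgeR adjusted p = 0.000198) and Cxcl11 was not called. They are named outside the naming rule, after their values were seen. Whether they overlap a gene on the opposite strand is not given here.

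The promoters of Ifit1 and Isg15 are shown as examples of an antiviral gene with the core of the interferon response element, searched as GAAANNGAA on both strands. Matches are in capitals. The 3 in Isg15 overlap in a row, and so do 2 of the 3 in Ifit1. The core was found in a promoter of 14 of the 26 genes of this list with one (53.8%), against 7.98% of the genes tested that had a promoter.
Ifit1 (chr19:34640639-34640888, plus strand): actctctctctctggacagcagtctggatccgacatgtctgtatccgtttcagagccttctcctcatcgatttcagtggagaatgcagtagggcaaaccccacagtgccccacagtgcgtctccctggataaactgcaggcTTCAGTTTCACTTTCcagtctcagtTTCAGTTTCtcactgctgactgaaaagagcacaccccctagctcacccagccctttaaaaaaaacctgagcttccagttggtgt
Isg15 (chr4:156200819-156201068, minus strand): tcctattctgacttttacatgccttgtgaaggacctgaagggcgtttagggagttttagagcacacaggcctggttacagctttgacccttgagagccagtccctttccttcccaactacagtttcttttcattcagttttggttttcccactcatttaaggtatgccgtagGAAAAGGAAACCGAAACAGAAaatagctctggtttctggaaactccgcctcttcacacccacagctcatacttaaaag

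Genes of MHC class I presentation, which shows peptides from inside the cell to cytotoxic T cells, rose with them: 13 of 16 were higher and none lower (median 1.28, isotype 0.77). Nlrc5, the transactivator of class I genes, went from 19, 22.4 and 15.3 to 96.8, 87.1 and 95.7 CPM, by 2.30 (SE 0.12, edgeR adjusted p = 3.59e-11). Psme2, a proteasome activator subunit, went from 126, 134 and 120.4 to 563, 589 and 505 CPM, by 2.12 (SE 0.11, edgeR adjusted p = 3.98e-11). FcMR exceeded isotype in 5 of the 16, among them Psme2 by 0.94 (SE 0.11, edgeR adjusted p = 3.94e-06). MHC class II genes, which present peptides taken up from outside, went the opposite way, with 10 of 14 lower and 3 higher (median −1.33, isotype −1.39). H2-Ab1 (ENSMUSG00000073421.5, chr17:34257689-34269419), a chain of the class II molecule itself, was at 2462, 1991 and 2318 CPM in untreated and 741, 572 and 1042 CPM in FcMR 24 h libraries. Every FcMR library was below every untreated one, a log2 change of −1.52 (SE 0.28, edgeR adjusted p = 0.000229), and isotype libraries held 635, 655 and 676 CPM, a difference that did not pass (edgeR adjusted p = 0.590). The peptide-loading genes fell further: H2-Ob by a log2 change of −3.40 (SE 0.16, edgeR adjusted p = 1.04e-11), H2-DMb2 by a log2 change of −2.76 (SE 0.15, edgeR adjusted p = 4.58e-11) and H2-DMa by a log2 change of −2.67 (SE 0.26, edgeR adjusted p = 1.42e-07). March1, the ubiquitin ligase that removes class II molecules from the surface, rose from 64.7, 71 and 61.7 to 256, 302 and 220.3 CPM, by 1.98 (SE 0.16, edgeR adjusted p = 1.56e-08). Ctss, the protease that trims the invariant chain, rose by 0.49 (SE 0.08, edgeR adjusted p = 9.84e-05), and Rfx5, a class II promoter factor, by 0.94 (SE 0.13, edgeR adjusted p = 6.61e-06).

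Of 16 costimulators and checkpoint ligands, 6 rose and 7 fell. Cd40, through which T helper cells activate macrophages, went from 29.4, 29.5 and 25.3 to 123, 122 and 157 CPM, by 2.25 (SE 0.20, edgeR adjusted p = 4.26e-08), and was at 33, 41.1 and 36.9 CPM with isotype. Slamf1 rose by 2.63 (SE 0.27, edgeR adjusted p = 2.51e-07) and Lgals9, a ligand of TIM-3, by 1.93 (SE 0.10, edgeR adjusted p = 3.74e-11). Havcr2, which encodes TIM-3, fell by 1.31 (SE 0.14, edgeR adjusted p = 3.12e-07), Icosl by a log2 change of −1.90 (SE 0.09, edgeR adjusted p = 1.68e-11) and Tnfsf9 by a log2 change of −1.20 (SE 0.17, edgeR adjusted p = 1.26e-05). FcMR exceeded isotype in 10 of the 16 genes and was below it in 3.

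Genes of alternative activation, the state driven by IL-4, were mostly lower: 12 of 18 fell and 4 rose (median −1.58, isotype −0.96). Clec10a, a galactose-binding lectin, was at 87.1, 113 and 123 CPM in untreated and 2.26, 1.62 and 1.22 CPM in FcMR 24 h libraries, a log2 change of −5.98 (SE 0.25, edgeR adjusted p = 2.20e-12), or −5.38 with the authors' own scaling factors. Its close relative Mgl2 fell from 1028, 1240.2 and 1119 to 89.7, 91.4 and 102 CPM, a log2 change of −3.58 (SE 0.11, edgeR adjusted p = 3.83e-14). Arg1 (ENSMUSG00000019987.9, chr10:24915221-24927484), the enzyme that splits arginine to ornithine, fell from 39.8, 24.5 and 18.2 to 4.52, 3.16 and 3.41 CPM, a log2 change of −2.90 (SE 0.33, edgeR adjusted p = 9.05e-07), and was at 7.36, 4.61 and 3.6 CPM with isotype. The groups did not overlap in these genes, and neither Mgl2 nor Arg1 passed the test between FcMR and isotype (edgeR adjusted p = 0.639 and 0.332). Socs2 rose by 0.85 (SE 0.16, edgeR adjusted p = 0.000251).

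Among 22 scavenger receptors and C-type lectins, 12 rose and 6 fell (median 0.50, isotype 0.60). Marco, a scavenger receptor for bacteria and particles, went from 33.6, 14.2 and 17.3 to 336, 209 and 402 CPM, by 3.88 (SE 0.36, edgeR adjusted p = 8.62e-08), or 4.56 without both untreated replicate 1 and FcMR 24 h replicate 2. Clec4e, which encodes Mincle, the receptor of mycobacterial cord factor, was at 368, 405 and 439 CPM in untreated and 3157, 4162 and 2666 CPM in FcMR 24 h libraries, a rise of 3.04 (SE 0.15, edgeR adjusted p = 2.35e-11). In isotype libraries it was at 185, 189 and 199 CPM, below every untreated library. Clec4d, which encodes the partner of Mincle, rose by 2.95 (SE 0.12, edgeR adjusted p = 2.02e-12) with FcMR and by 2.40 with isotype. Cd209a, a mouse homologue of DC-SIGN, had 0, 1 and 1 counts in the FcMR 24 h libraries against 13.4, 19 and 15 CPM untreated, 375-fold less (95% exact interval 103 to 3100.4, counting error only). Clec4a2, an inhibitory lectin, fell by 1.17 (SE 0.17, edgeR adjusted p = 2.06e-05) and Tyro3, a receptor for dying cells, a log2 change of −1.44 (SE 0.26, edgeR adjusted p = 0.000166).

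Among complement genes, the chains of C1q fell and factor B rose. Over the list, 9 of 14 fell and 3 rose (median −0.81), while the isotype median was 0.30, and 8 genes were lower with FcMR than with isotype. C1q is the recognition molecule of the classical pathway. Its chain C1qb was at 394, 376 and 382 CPM in untreated and 37.8, 28.3 and 56.7 CPM in FcMR 24 h libraries, a log2 change of −3.24 (SE 0.29, edgeR adjusted p = 3.94e-08). It was at 154, 163 and 141 CPM with isotype, between the other groups and apart from both, and the difference from FcMR was −1.91 (SE 0.27, edgeR adjusted p = 4.87e-05). C1qa had a log2 change of −3.81 (SE 0.43, edgeR adjusted p = 1.00e-06), or −3.05 after GC correction, and C1qc by a log2 change of −3.63 (SE 0.48, edgeR adjusted p = 6.43e-06). Cfb (ENSMUSG00000090231.10, chr17:34856374-34862518), factor B of the alternative pathway, went from 37.9, 32.1 and 26.1 to 4151, 3493 and 4485 CPM, a log2 change of 6.98 (SE 0.16, edgeR adjusted p = 1.42e-15). C3, on which both pathways converge, rose from 273, 274 and 259.8 to 1026, 808 and 1067 CPM, by 1.85 (SE 0.09, edgeR adjusted p = 1.80e-11). Cfb was at 912, 825 and 1042 CPM with isotype and exceeded it by 2.13 (SE 0.13, edgeR adjusted p = 1.60e-09) with FcMR.

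Among lipid mediator genes, the cyclooxygenase Ptgs2 and the prostaglandin E synthase Ptges rose and the first enzyme of leukotriene synthesis fell. Of 17 genes, 4 rose and 10 fell (median −0.36). Ptgs2 (ENSMUSG00000032487.8, chr1:150100031-150108227), the inducible cyclooxygenase, was at 8.55, 8.83 and 10.2 CPM in untreated and 75.2, 126 and 68.6 CPM in FcMR 24 h libraries, by 3.30 (SE 0.20, edgeR adjusted p = 2.94e-10), and at 5.49, 5.57 and 6.05 CPM with isotype. Ptges, the synthase of prostaglandin E that works with it, went from 3.4, 3.4 and 3.11 to 117, 114 and 154 CPM, by 5.28 (SE 0.23, edgeR adjusted p = 4.98e-12), or 4.63 with the authors' factors. Pla2g4a, the phospholipase that frees arachidonic acid, rose by 2.59 (SE 0.16, edgeR adjusted p = 3.44e-10). Alox5, the first enzyme of leukotriene synthesis, fell from 67.6, 56.1 and 56.7 to 8.94, 5.51 and 13.3 CPM, a log2 change of −2.75 (SE 0.23, edgeR adjusted p = 2.00e-08), and was at 45.8, 41.6 and 39.6 CPM with isotype. Hpgds, the synthase of prostaglandin D, fell by 1.63 (SE 0.27, edgeR adjusted p = 6.45e-05), and Ptgir, the prostacyclin receptor, a log2 change of −0.86 (SE 0.16, edgeR adjusted p = 0.000302). Against isotype, Alox5 was lower with FcMR by a log2 change of −2.24 (SE 0.23, edgeR adjusted p = 1.00e-06) and Ptges higher by 3.89 (SE 0.22, edgeR adjusted p = 6.13e-10).

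Among arginine genes, the nitric oxide synthase Nos2 rose, and of the arginases Arg1 fell and Arg2 rose. Of 17, 6 rose and 9 fell. Nos2 (ENSMUSG00000020826.8, chr11:78920787-78960254), which makes nitric oxide from arginine, went from 3.3, 1.93 and 2.7 to 24.2, 19.3 and 16.8 CPM, by 2.97 (SE 0.28, edgeR adjusted p = 9.93e-08), and was at 2.55, 2.14 and 1.03 CPM with isotype, within the untreated range or below it. Ass1, which recycles citrulline to arginine, rose from 314, 309 and 257 to 1548, 1247 and 1566 CPM, by 2.31 (SE 0.11, edgeR adjusted p = 7.12e-12). Arg2, the mitochondrial arginase, rose from 8.06, 9.34 and 10.4 to 16, 14.1 and 14.9 CPM, by 0.69 (SE 0.18, edgeR adjusted p = 0.00327), and is named although the naming rule does not take it, after its values were seen. The arginine importers differed: Slc7a2 rose by 1.77 (SE 0.11, edgeR adjusted p = 4.19e-10) and Slc7a1 fell by 1.88 (SE 0.09, edgeR adjusted p = 1.81e-11). In the list of the tricarboxylic acid cycle and respiratory chain 16 of 28 rose and none was called lower, with small changes (median 0.32, isotype 0.35). Without FcMR 24 h replicate 3, and also after GC correction, 2 were called lower. Acod1, which takes aconitate from that cycle to make itaconate, was the exception in size, at 148, 133 and 112 CPM in untreated and 2483, 2259.7 and 2374 CPM in FcMR 24 h libraries, by 4.18 (SE 0.10, edgeR adjusted p = 2.61e-15). Isotype libraries held 480.0, 466 and 518 CPM, and the difference was 2.28 (SE 0.09, edgeR adjusted p = 1.13e-11). Cox7a2 rose by 0.74 (SE 0.09, edgeR adjusted p = 1.66e-06) and Sdhb by 0.72 (SE 0.18, edgeR adjusted p = 0.00280).

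Antioxidant genes rose in 14 of 21 cases and fell in 4 (median 1.01, isotype 0.28). Only 1 fall was called without untreated replicate 1, FcMR 24 h replicate 1 or FcMR 24 h replicate 2, and 2 without untreated replicate 3. Prdx1, a peroxidase of the cytosol, was at 1801, 1995 and 1884 CPM in untreated libraries and rose by 2.90 (SE 0.13, edgeR adjusted p = 9.26e-12). Nqo1, a classic target of NRF2, went from 25.8, 29.5 and 26.8 to 144, 168 and 133 CPM, by 2.43 (SE 0.13, edgeR adjusted p = 3.96e-11). Sod2, the mitochondrial superoxide dismutase, went from 153, 153 and 167 to 833, 894 and 885 CPM, by 2.47 (SE 0.09, edgeR adjusted p = 3.31e-13). Nqo1 and Prdx1 rose with isotype too, by 2.13 and 2.51, whereas Sod2 was at 172, 190.3 and 211 CPM with isotype, and FcMR exceeded it by 2.19 (SE 0.09, edgeR adjusted p = 1.13e-11). FcMR exceeded isotype in 12 of the 21 genes and was below it in none.

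Fatty acid genes showed 6 rises and 9 falls among 22. Acsl1 (ENSMUSG00000018796.13, chr8:46471037-46536051), which activates long-chain fatty acids with coenzyme A, was at 58.1, 51.3 and 50.8 CPM in untreated, 1171, 1213 and 1068 in FcMR 24 h and 116, 115 and 119.7 in isotype 24 h libraries. The groups were fully apart, by 4.43 (SE 0.10, edgeR adjusted p = 1.42e-15) against untreated and 3.30 (SE 0.10, edgeR adjusted p = 1.42e-13) against isotype. Dgat2, the last enzyme of triglyceride synthesis, went from 11.5, 7.68 and 9.56 to 44.1, 33.8 and 63.5 CPM, by 2.30 (SE 0.26, edgeR adjusted p = 9.09e-07). Fabp4, the fatty acid carrier of fat cells and macrophages, fell from 106, 102 and 105 to 49.5, 46 and 44.9 CPM, a log2 change of −1.16 (SE 0.12, edgeR adjusted p = 3.95e-07), and Acsl3 fell by 1.42 (SE 0.17, edgeR adjusted p = 1.36e-06). Glycolysis genes were near the background, with 6 higher and 5 lower among 23. Without FcMR 24 h replicate 2 these counts were 10 and 3, and after GC correction 11 and 6. Pfkfb3, which makes the activator of phosphofructokinase, rose from 84.9, 85.7 and 82.7 to 577, 653 and 527 CPM, by 2.79 (SE 0.10, edgeR adjusted p = 2.11e-13), and Hif1a, the hypoxia factor, by 1.26 (SE 0.15, edgeR adjusted p = 1.31e-06). Slc2a3, a glucose transporter, fell by 2.50 (SE 0.23, edgeR adjusted p = 5.86e-08) and Slc16a1, a lactate transporter, a log2 change of −1.39 (SE 0.13, edgeR adjusted p = 1.19e-07).

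Cholesterol synthesis genes fell together: 19 of 24 genes fell and 1 rose (median −1.40), with 19 and 1 also for isotype (median −1.26). The gene that rose, Pmvk, of the mevalonate pathway, missed the threshold without untreated replicate 2 or 3 or FcMR 24 h replicate 3 (edgeR adjusted p = 0.0642, 0.0804 and 0.105), and 2 genes were called higher without FcMR 24 h replicate 2. Hmgcs1 (ENSMUSG00000093930.2, chr13:119690379-119708260), which makes the precursor of mevalonate, was at 735, 758 and 717 CPM in untreated and 114, 149.5 and 116 CPM in FcMR 24 h libraries. The groups were apart by a log2 change of −2.54 (SE 0.10, edgeR adjusted p = 1.69e-12), and isotype libraries held 176, 163 and 157 CPM. Insig1, which holds the sterol sensor in the endoplasmic reticulum, fell from 322, 339.6 and 319.8 to 68.9, 81.1 and 68.9 CPM, a log2 change of −2.16 (SE 0.09, edgeR adjusted p = 1.80e-12). Stard4, a cholesterol carrier, fell by 1.95 (SE 0.12, edgeR adjusted p = 2.28e-10). FcMR was below isotype in 4 of the 24 genes and above it in none. In the list of LXR and efflux, 4 of 17 rose and 4 fell, 47.1% called against 51.4% of all genes. Without untreated replicate 1 and FcMR 24 h replicate 2, 2 fell. Abca1, the pump that exports cholesterol, rose from 148, 194 and 194 to 744, 797 and 799 CPM, by 2.13 (SE 0.11, edgeR adjusted p = 2.35e-11), and exceeded isotype by 1.25 (SE 0.10, edgeR adjusted p = 9.29e-08). Npc2, which moves cholesterol out of lysosomes, rose by 1.22 (SE 0.13, edgeR adjusted p = 3.57e-07), and Nceh1, a cholesterol ester hydrolase, fell by 0.52 (SE 0.08, edgeR adjusted p = 5.31e-05).

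Cell cycle genes fell together. In the mitosis and G2/M list 26 of 28 were lower and 1 higher, where 25.4% of all genes were called lower. Their median was −2.33, against −1.21 with isotype. Ccnb2, a B-type cyclin, was at 18, 14.5 and 9.81 CPM in untreated and 1.13, 0.588 and 0.731 CPM in FcMR 24 h libraries, a log2 change of −4.18 (SE 0.43, edgeR adjusted p = 3.34e-07). Ube2c, which tags cyclins for destruction, fell from 17.6, 11.7 and 7.11 to 1.03, 0.845 and 0.731 CPM, a log2 change of −3.79 (SE 0.42, edgeR adjusted p = 8.25e-07), and Kif23, a motor of cytokinesis, a log2 change of −3.46 (SE 0.33, edgeR adjusted p = 1.15e-07). Mki67, the proliferation antigen, fell less, from 124, 108 and 80 to 51.7, 66.6 and 39.9 CPM, a log2 change of −0.97 (SE 0.24, edgeR adjusted p = 0.00251). FcMR libraries were the lower ones without overlap in all 4 genes. The gene called higher, Bub1b, missed the threshold without untreated replicate 3 (0.42, edgeR adjusted p = 0.0787).

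The isotype cells showed the same direction to a lesser degree, with 21 of 28 lower. Ccnb2 was at 4.12, 4.29 and 2.19 CPM with isotype, and FcMR was below it by a log2 change of −2.20 (SE 0.46, edgeR adjusted p = 0.00168). FcMR was below isotype in 21 of the 28 genes, where 9.44% of all genes were, and above it in none. Mki67 went against this: isotype libraries held 47.2, 32.4 and 27.7 CPM and the difference did not pass (edgeR adjusted p = 0.118). In the DNA replication and G1/S list 19 of 28 fell and 1 rose, or 2 without untreated replicate 1 (median −0.86), while the isotype median was −0.11 with 4 each way, and 17 were lower with FcMR than with isotype. E2f2, an activator of S-phase genes, was at 26.1, 21.1 and 22.3 CPM in untreated, 2.36, 2.09 and 3.17 in FcMR 24 h and 16.1, 15.5 and 14.3 in isotype 24 h libraries. The FcMR libraries lay far below both other groups, a log2 change of −3.22 (SE 0.18, edgeR adjusted p = 1.27e-10) and −2.63 (SE 0.18, edgeR adjusted p = 1.10e-08). Tk1 and Rrm2, which supply deoxynucleotides, had log2 changes of −2.13 (SE 0.15, edgeR adjusted p = 2.57e-09) and −1.87 (SE 0.28, edgeR adjusted p = 2.01e-05). E2f1 rose by 0.84 (SE 0.26, edgeR adjusted p = 0.0109).

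**Figure D3:**
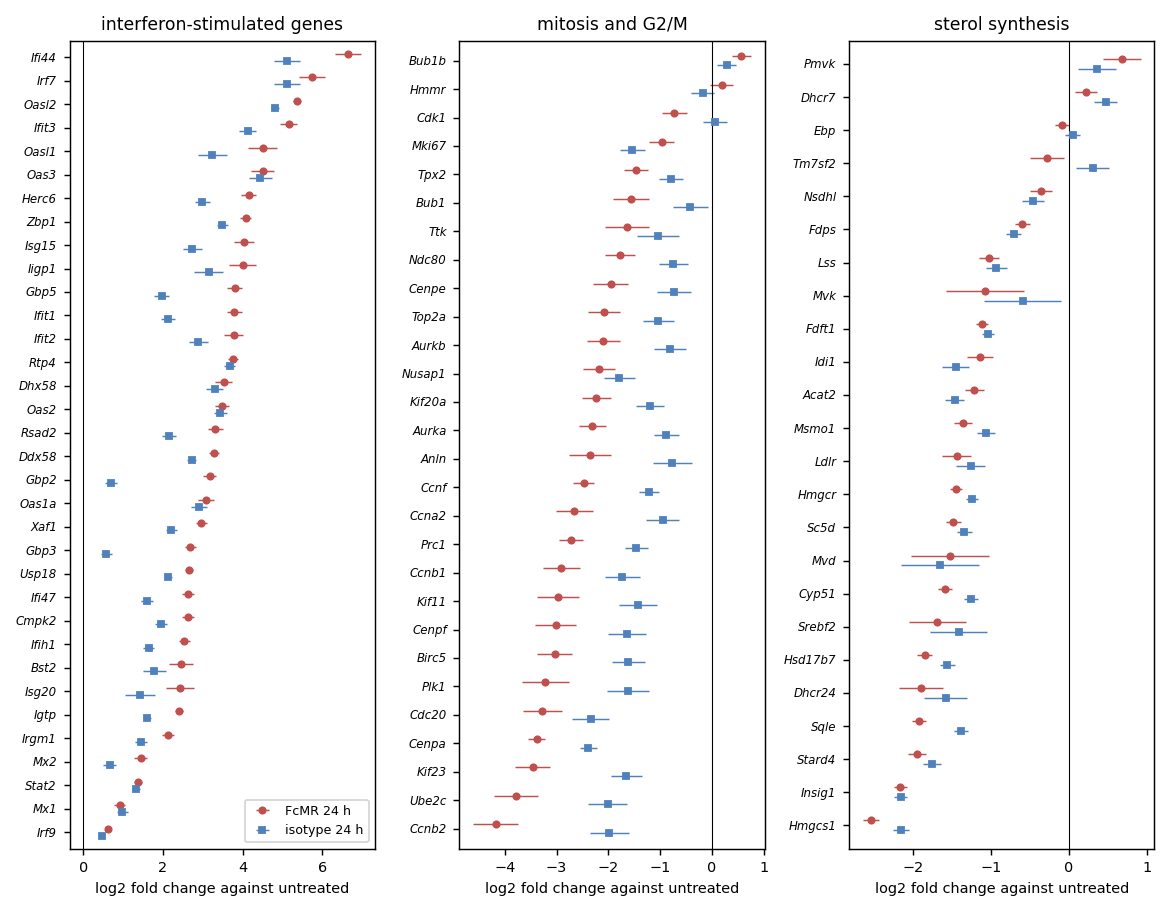
Log2 fold change against untreated of tested genes of the interferon, mitosis and sterol lists with FcMR (red circles) and isotype (blue squares) at 24 h, with SE bars. The interferon genes drawn all lie right of 0, most mitosis genes lie farther left with FcMR than with isotype, and the sterol genes lie close together.

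The CCAAT box was common in the promoters of both falling groups, in 20 of 24 mitosis genes (83.3%) and 16 of 17 sterol genes (94.1%), against 40.8% of genes tested. It was not particular to lists that fell. MHC class I genes, of which none was called lower, held it in 8 of 13 cases (61.5%). DNA replication genes, which fell, held it in 14 of 22 (63.6%), and interferon genes, which rose, in 8 of 26 (30.8%). TTTGAA, part of the cell cycle homology region, was in promoters of 9 of the 24 mitosis genes (37.5%, against 13.6%). It was also in those of 8 of the 26 genes of the interferon list (30.8%), which rose. In the DNA replication list, which fell, it was in those of 3 of the 22 genes (13.6%). The sterol element, searched as TCACNCCAC, was in promoters of 1 of the 17 sterol genes (5.88%, against 1.19%). Promoters of Hmgcs1 and Ccnb2 are shown with the CCAAT boxes of either strand in capitals.
Hmgcs1 (chr13:119690101-119690350, plus strand): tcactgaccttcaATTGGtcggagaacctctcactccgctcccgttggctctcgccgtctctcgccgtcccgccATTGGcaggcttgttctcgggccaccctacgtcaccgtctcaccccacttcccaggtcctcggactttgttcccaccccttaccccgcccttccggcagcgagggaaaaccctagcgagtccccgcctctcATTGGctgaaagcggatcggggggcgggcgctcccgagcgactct
Ccnb2 (chr9:70421555-70421804, minus strand): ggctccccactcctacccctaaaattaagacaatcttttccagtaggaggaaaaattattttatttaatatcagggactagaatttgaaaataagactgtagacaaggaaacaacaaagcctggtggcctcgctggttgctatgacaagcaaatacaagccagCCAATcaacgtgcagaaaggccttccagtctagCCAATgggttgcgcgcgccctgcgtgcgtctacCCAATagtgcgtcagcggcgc

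Immediate early genes, which the first minutes of growth factor signalling induce, were lower in 14 of 24 cases and higher in 4 (median −1.06, isotype −1.28). Without untreated replicate 1 only 2 of the rises were called. Fosb was at 15, 15 and 18.9 CPM in untreated and 0.308, 0.11 and 0.853 CPM in FcMR 24 h libraries, a log2 change of −5.59 (SE 0.56, edgeR adjusted p = 1.99e-07), with −4.79 and −6.48 when FcMR 24 h replicate 2 or 3 was left out. Egr3 fell by 3.81 (SE 0.39, edgeR adjusted p = 2.57e-07). Myc, a driver of growth and division, fell from 38.2, 22.2 and 27.8 to 2.78, 2.21 and 4.14 CPM, a log2 change of −3.33 (SE 0.30, edgeR adjusted p = 4.83e-08), and was at 10.5, 11.8 and 10.6 CPM with isotype, from which FcMR differed by a log2 change of −1.91 (SE 0.30, edgeR adjusted p = 0.000129). Fos itself did not pass, at 22.8, 21.2 and 27 CPM in untreated and 19.6, 17.1 and 21.1 in FcMR 24 h libraries, with a log2 change of −0.30 (SE 0.17, edgeR adjusted p = 0.147). Fosl2 rose by 0.73 (SE 0.07, edgeR adjusted p = 1.02e-07). In the list of ATF4 and the amino acid response 11 of 19 fell and 3 rose (median −0.75). Slc7a5, the importer of large neutral amino acids, fell from 59.3, 45.1 and 44.7 to 7.71, 6.06 and 8.53 CPM, a log2 change of −2.76 (SE 0.17, edgeR adjusted p = 4.55e-10), and Psat1, of serine synthesis, a log2 change of −2.01 (SE 0.12, edgeR adjusted p = 1.52e-10). Mthfd2, of mitochondrial folate metabolism, rose by 1.46 (SE 0.09, edgeR adjusted p = 3.63e-10).

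Of 14 inflammasome genes, 9 rose and 3 fell (median 0.83, isotype 0.47). FcMR exceeded isotype in 7 of the 14 and was below it in 3. Casp1, the protease that cuts pro-IL-1, went from 38, 41.7 and 40.1 to 174, 234 and 119.6 CPM, by 2.14 (SE 0.18, edgeR adjusted p = 2.81e-08), and Il18bp, which neutralises IL-18, by 3.07 (SE 0.15, edgeR adjusted p = 2.18e-11). Mefv, which encodes pyrin, rose by 1.75 (SE 0.18, edgeR adjusted p = 3.29e-07). Nlrp3, the sensor whose transcription primes the inflammasome, went from 166, 182 and 189 CPM in untreated to 123, 121 and 135 CPM in FcMR 24 h libraries, a log2 change of −0.50 (SE 0.09, edgeR adjusted p = 0.000120). It had been at 613 ± 24 CPM at FcMR 4 h, from which it fell by 2.28 (SE 0.09, edgeR adjusted p = 2.74e-12). Nlrp1b fell by 1.13 (SE 0.19, edgeR adjusted p = 9.00e-05). In the survival and death list 12 of 24 rose and 4 fell. Mlkl, the executor of necroptosis, went from 10.1, 10.7 and 9.24 to 71.4, 79.7 and 61.3 CPM, by 2.82 (SE 0.12, edgeR adjusted p = 4.69e-12). Bcl2l1, which encodes the survival protein BCL-XL, fell from 87.4, 75.5 and 73.2 to 36.4, 26.5 and 40.6 CPM, a log2 change of −1.20 (SE 0.18, edgeR adjusted p = 2.53e-05), and was at 83.3, 77.3 and 82.4 CPM with isotype, where all libraries lay above those of FcMR. Pmaip1, which encodes NOXA, fell by 1.58 (SE 0.19, edgeR adjusted p = 2.37e-06).

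In the list of Fc receptors, Src kinases and CD45 signalling, 14 of 25 rose and 6 fell (median 0.44, isotype 0.44). Without untreated replicate 1 and FcMR 24 h replicate 2 the falls numbered 3. Src rose by 2.18 (SE 0.42, edgeR adjusted p = 0.000299), or 2.85 after GC correction, and Trim21, a cytosolic Fc receptor, by 1.55 (SE 0.13, edgeR adjusted p = 1.44e-08). Fcgrt, the neonatal Fc receptor that recycles IgG, fell from 53.1, 35.4 and 49.3 to 6.78, 4.23 and 8.29 CPM, a log2 change of −2.88 (SE 0.26, edgeR adjusted p = 5.54e-08), and was at 8.53, 6.75 and 9.14 CPM with isotype. Fyn fell by 1.25 (SE 0.10, edgeR adjusted p = 1.25e-08). Ptprc, which encodes CD45, was at 521, 579.5 and 534 CPM in untreated and 666, 820.2 and 589.6 CPM in FcMR 24 h libraries. The groups did not overlap, but the rise of 0.35 (SE 0.14, edgeR adjusted p = 0.0457) missed the threshold without untreated replicate 1, 2 or 3 or without FcMR 24 h replicate 1 or 2, with log2 fold changes of 0.32, 0.39, 0.33, 0.41 and 0.25.

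Of 20 genes of matrix proteases and the plasminogen system 8 rose and 6 fell. FcMR exceeded isotype in 10 of the 20 and was below it in 7, where 11.4% and 9.44% of all genes were. Plat, the tissue plasminogen activator, went from 0.777, 1.24 and 0.409 to 29.2, 36.7 and 36 CPM, by 5.27 (SE 0.26, edgeR adjusted p = 1.72e-11). Mmp2, a gelatinase, rose by 3.21 (SE 0.20, edgeR adjusted p = 4.26e-10). Mmp19 fell from 922, 1192 and 1348 to 128, 131 and 127 CPM, a log2 change of −3.16 (SE 0.12, edgeR adjusted p = 4.76e-13), Plaur, the urokinase receptor, a log2 change of −1.94 (SE 0.30, edgeR adjusted p = 4.09e-05) and Thbs1, which encodes thrombospondin, a log2 change of −1.05 (SE 0.10, edgeR adjusted p = 1.60e-07). Integrin and adhesion genes fell in 11 of 21 cases and rose in 3, or in 6 after GC correction. FcMR exceeded isotype in 4 of the 21 and was below it in 8. Itgb7 and Itgae, which pair in the integrin that binds E-cadherin, had log2 changes of −3.61 (SE 0.30, edgeR adjusted p = 2.20e-08) and −3.34 (SE 0.38, edgeR adjusted p = 1.02e-06). Itga4 rose by 1.28 (SE 0.16, edgeR adjusted p = 3.66e-06) and Vcam1 by 0.82 (SE 0.18, edgeR adjusted p = 0.00104).

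Lysosomal genes rose in 14 of 24 cases and fell in 3 (median 0.44, isotype 0.50). Ctsk, a collagen-degrading protease, rose by 1.64 (SE 0.13, edgeR adjusted p = 1.35e-08) and Ctsz by 1.16 (SE 0.22, edgeR adjusted p = 0.000240). Gpnmb, a marker of lipid-laden macrophages, rose from 2920.5, 2812 and 2781 to 5278, 4743 and 5619.6 CPM, by 0.88 (SE 0.12, edgeR adjusted p = 1.03e-05), and was higher with isotype, at 9468, 9558 and 9545 CPM. Atp6v0d2, a proton pump subunit, fell by 0.92 (SE 0.14, edgeR adjusted p = 3.49e-05) with FcMR, and its change with isotype was 0.03 (edgeR adjusted p = 0.907).

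Among 21 myeloid transcription factor genes 6 rose and 11 fell (median −0.49). Irf8, a monocyte and dendritic cell factor, rose from 107, 83.6 and 94.2 to 281, 266 and 297 CPM, by 1.57 (SE 0.17, edgeR adjusted p = 5.83e-07), Mitf by 1.35 (SE 0.10, edgeR adjusted p = 2.55e-09) and Bhlhe41 by 1.13 (SE 0.09, edgeR adjusted p = 1.06e-08). Irf5 fell from 413, 323 and 384 to 114, 99.3 and 130.2 CPM, a log2 change of −1.71 (SE 0.23, edgeR adjusted p = 6.15e-06). Irf8, Mitf and Bhlhe41 had risen and Irf5 fallen with isotype as well, by 1.22, 1.78, 1.34 and −1.42.

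Transporters of glutamate and neutral amino acids rose in 6 of 12 cases and fell in 4. Slc1a2 (ENSMUSG00000005089.15, chr2:102658659-102790784), the glutamate importer best known from astrocytes, was the member with the largest change. It was at 0.583, 0.368 and 0.327 CPM in untreated, 95.4, 118 and 90 in FcMR 24 h and 0.883, 0.429 and 0.644 in isotype 24 h libraries. Only the FcMR libraries exceeded 1 CPM among these 9, with log2 fold changes of 7.92 (SE 0.21, edgeR adjusted p = 9.40e-15) against untreated, or 6.46 with the authors' factors, and of 7.25 (SE 0.21, edgeR adjusted p = 1.42e-13) against isotype. With FcMR it had been at 31.5 ± 3.19 CPM at 4 h and 107 ± 3.1 CPM at 12 h (mean ± SD, n = 3). Slc7a6 rose by 0.97 (SE 0.16, edgeR adjusted p = 5.22e-05). Slc36a2 rose less with FcMR, from 0.874, 1.7 and 1.8 to 5.14, 3.97 and 7.92 CPM, than with isotype, which held 14.2, 19.3 and 24.5 CPM, a difference of −1.79 (SE 0.33, edgeR adjusted p = 0.000606).

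Among protein-coding genes averaging at least 1 on the log2 CPM scale, the 12 highest fold changes were those of Gsta1, Susd2, Pkp1, Saa3, Cxcl5, Apol9b, Slc1a2, C1s1, Synpo2, Ms4a4c, U90926 and Cfb. Saa3 (ENSMUSG00000040026.8, chr7:46711998-46715700), a serum amyloid A protein of the acute phase made by macrophages, was at 8.55, 7.82 and 8.34 CPM in untreated and 3754, 3506 and 5127 CPM in FcMR 24 h libraries. All FcMR libraries exceeded all others, by 8.97 (SE 0.25, edgeR adjusted p = 1.58e-14) against untreated, and isotype libraries held 456, 514 and 539.8 CPM. Susd2 went from 0.291, 0.184 and 0.163 to 207, 169.9 and 262 CPM, by 9.97 (SE 0.36, edgeR adjusted p = 3.31e-13), and was at 11.9, 15.2 and 12.7 CPM with isotype. C1s1, a protease of the classical complement pathway, went from 0.194, 0.092 and 0.0817 to 30.2, 32.3 and 24.9 CPM, by 7.90 (SE 0.42, edgeR adjusted p = 4.83e-11), or 7.28 with the authors' factors. Ms4a4c rose by 7.28 (SE 0.29, edgeR adjusted p = 1.34e-12), and Synpo2 by 7.44 (SE 0.27, edgeR adjusted p = 3.65e-13), or 6.63 with the authors' factors. Gsta1, a glutathione transferase, had 0, 0 and 0 counts in the untreated libraries and 10.4, 12.6 and 7.19 CPM with FcMR, at least 44.8-fold higher, taking 3 counts per library as the floor. Pkp1, a desmosome protein, also had 0, 0 and 0 counts in untreated libraries and was at least 23.8-fold higher. Apol9b had 1 count in all untreated libraries together and 8.74, 6.43 and 7.56 CPM with FcMR, 316-fold more (95% exact interval 56.3 to 12510, counting error only). U90926 rose by 7.27 (SE 0.33, edgeR adjusted p = 6.75e-12), or 8.06 without untreated replicate 3. Estimated counts of Gsta1 and Apol9b are uncertain because near-identical copies exist.

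Among the 12 lowest were Cd207, Cd209a, Asgr2, Asprv1, Cyp4a12a, Cyp4a12b, Clec10a, Crisp3, Ly6g, Hapln3 and Gdf15. Cd207, which encodes langerin, the lectin of Langerhans cells, went from 28.9, 38.8 and 36.5 CPM to 3, 1 and 0 counts in the FcMR 24 h libraries. Its log2 fold change was −8.45 (SE 0.49, edgeR adjusted p = 1.68e-10), and −9.88 or −7.60 without FcMR 24 h replicate 1 or 2. Asgr2, an asialoglycoprotein receptor chain, went from 64.4, 70.6 and 56.1 to 0.206, 0.184 and 0.366 CPM, a log2 change of −8.09 (SE 0.28, edgeR adjusted p = 2.66e-13). Cd207, Cd209a, Asgr2 and Clec10a, 4 of the 12, encode C-type lectins. Gdf15 varied among untreated libraries, at 26.5, 3.91 and 11.5 CPM, and was at 0.103, 0.221 and 0.61 CPM with FcMR, a log2 change of −5.61 (SE 1.27, edgeR adjusted p = 0.00131). That change was −4.75 without untreated replicate 1 and −4.34 after GC correction. Cyp4a12a and Cyp4a12b are close copies, and Cyp4a12a fell from 38.5, 41.7 and 52.1 to 0.308, 0.147 and 0.61 CPM, a log2 change of −7.26 (SE 0.35, edgeR adjusted p = 1.26e-11), or −6.55 without FcMR 24 h replicate 2. Cyp4a12b had a log2 change of −6.47 (edgeR adjusted p = 1.86e-08), or −7.28 without that library. Asprv1 had a log2 change of −7.80 (edgeR adjusted p = 1.10e-08), with −11.44 and −6.58 when FcMR 24 h replicate 1 or 2 was left out. Hapln3 fell by 5.72 (SE 0.48, edgeR adjusted p = 1.85e-08) and Crisp3 by a log2 change of −5.93 (SE 0.54, edgeR adjusted p = 5.68e-08). Of the 12, only Asgr2, Clec10a and Hapln3 passed the test between FcMR and isotype at 24 h. Without FcMR 24 h replicate 2 none of the 3 did (edgeR adjusted p = 0.0552, 0.0928 and 0.202). Asgr2 also missed the threshold without isotype 24 h replicate 1 and Clec10a without isotype 24 h replicate 2 (edgeR adjusted p = 0.0885 and 0.0895). With 1 library left out, Hapln3 passed only without FcMR 24 h replicate 1 (edgeR adjusted p = 0.0329).

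**Figure D4:**
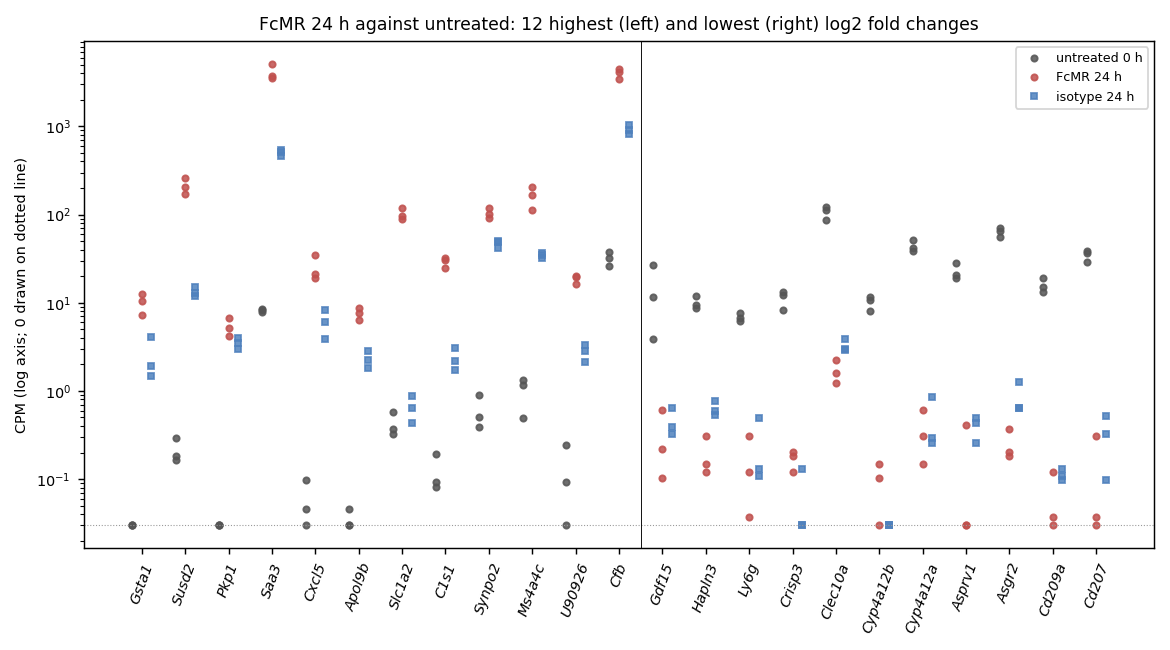
Level in CPM (log axis, 0 drawn on the dotted line) of the protein-coding genes with the 12 highest and 11 of the 12 lowest log2 fold changes, in each untreated (grey), FcMR 24 h (red) and isotype 24 h (blue) library. The isotype libraries lie between the others for Saa3 and Susd2, near untreated for Slc1a2 and near FcMR for most lowered genes.

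Granulocyte genes were part of the fall. All 10 neutrophil markers and all 8 markers of eosinophils, basophils and mast cells were called lower, against 25.4% of all genes. S100a9, a calprotectin subunit, was at 725, 646 and 754 CPM in untreated and 69.6, 58.2 and 53.9 CPM in FcMR 24 h libraries, a log2 change of −3.55 (edgeR adjusted p = 2.68e-10). Ngp, a neutrophil granule protein, went from 245, 255 and 291 to 18.1, 14.2 and 9.14 CPM, by −4.25 (edgeR adjusted p = 2.73e-10). Prg2, the major basic protein of eosinophils, went from 624, 484 and 549 to 78.1, 52.8 and 62.7 CPM, by −3.10 (edgeR adjusted p = 2.76e-09). Ly6g went from 6.7, 6.21 and 7.6 to 0.308, 0.0367 and 0.122 CPM, a log2 change of −5.75 (SE 0.50, edgeR adjusted p = 3.23e-08), with −6.65 and −4.85 when FcMR 24 h replicate 1 or 2 was left out. Cxcr2 and Il1r2, described above, are also genes of granulocytes, and the part of those cells in their fall was not tested. Of the macrophage markers, 5 rose and 2 fell: Adgre1, which encodes F4/80, went from 205, 228 and 193 to 1498, 1719 and 1304 CPM, by 2.85 (edgeR adjusted p = 1.01e-11), and Lyz2 did not pass, at −0.02 (edgeR adjusted p = 0.890). Lgals3, which encodes galectin-3, fell from 5445, 3913 and 4872 to 2037, 1693 and 2075 CPM. Of the dendritic cell markers 4 rose and 4 fell. Flt3, the receptor of their growth factor, rose by 3.39 (edgeR adjusted p = 6.66e-12), and Ccr7, which guides them to lymph nodes, by 1.43 (edgeR adjusted p = 2.27e-07). The falls were those of Cd209a, given with the lectins, Xcr1, a chemokine receptor, at −1.61 (edgeR adjusted p = 0.0113, or 0.0815 without untreated replicate 2), Zbtb46, a transcription factor, at −0.71 (edgeR adjusted p = 1.21e-05) and Itgax, which encodes CD11c, at −0.32 (edgeR adjusted p = 0.000470).

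**Figure D5:**
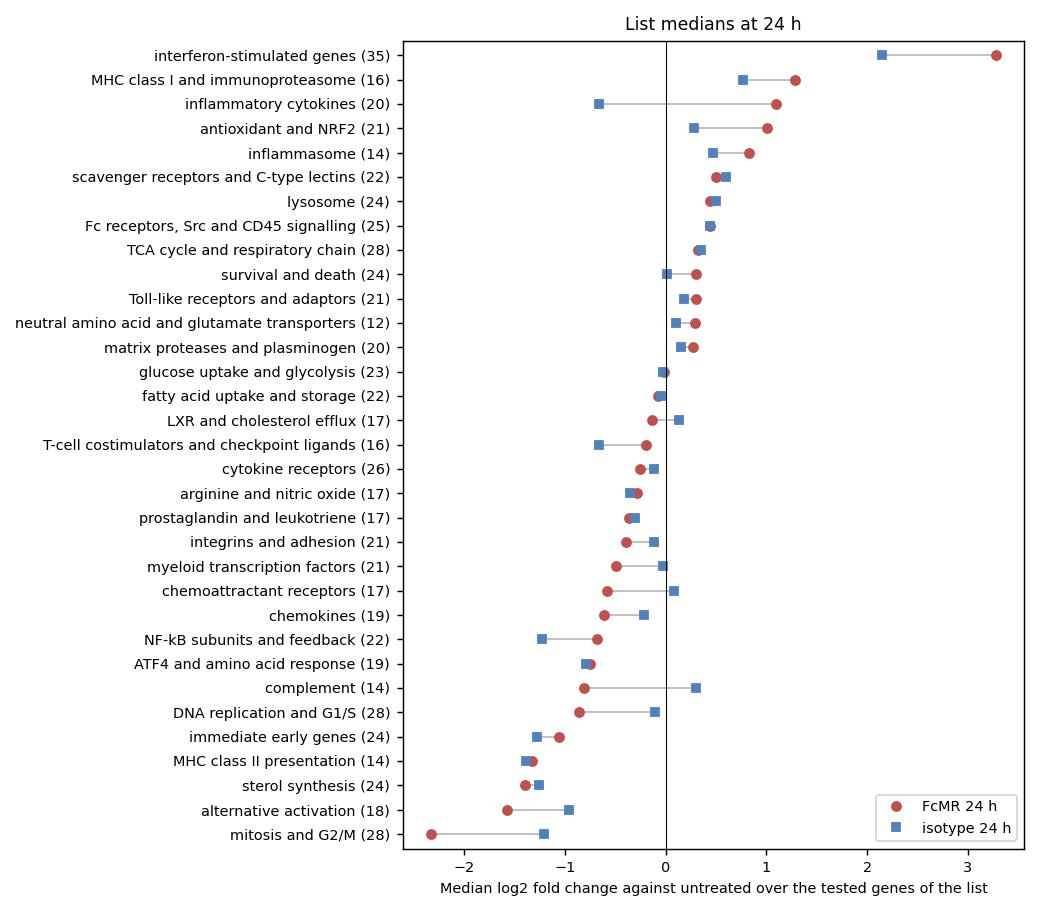
Median log2 fold change against untreated over the tested genes of each list (number in parentheses) for FcMR 24 h (red circles) and isotype 24 h (blue squares), which share the untreated libraries. The medians lie close together for sterol and MHC class II genes (−1.40 and −1.26, −1.33 and −1.39) and apart for cytokines (1.09 and −0.66), complement (−0.81 and 0.30) and mitosis (−2.33 and −1.21).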

How the data were processed

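RNA was sequenced from 7 groups of 3 libraries, 21 in all. The authors' deposited raw table holds estimated counts per gene, whole numbers for 23250 Ensembl mouse genes, and the sums of the libraries compared are given with the results. The submitters' processing notes name CASAVA 1.8.2, kallisto 0.44.0 and DESeq2, and the builds mm10 and GRCm38, in no stated order. The aligner settings, the annotation and the filter are not given in the sources used here, and no deposited gene summed to fewer than 10 counts. The deposited normalized table holds a signal, the raw values divided by the authors' factor for each library and gene; its factors served as an alternative scaling. For 22.6% of the 13034 genes without a 0 these factors were within 1% of the library median, so gene-specific factors were part of it.

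Groups came from the titles. Counts were fitted with edgeR 4.0.16 in R 4.3.3 (TMM scaling, genes kept by filterByExpr with a minimum count of 10) in 1 quasi-likelihood model over all 21 libraries, with a coefficient for each group, and p-values were Benjamini-Hochberg adjusted over all genes tested. CPM values use TMM-scaled library sizes. SE is the log2 fold change divided by the square root of the F statistic. The script was tested on simulated data. Symbols, coordinates and strands came from GENCODE M21 (GRCm38), in which 21231 gene identifiers matched with their version and 23187 genes had a symbol. Replicates of every group differed by more than counting noise, and each was kept as a library of its own. That check cannot tell separate cultures from separate preparations of the same RNA. Bounds take 3 counts per library as the floor, and intervals are 95% exact binomial intervals that cover counting error only.

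The 33 lists (685 genes), the 9 marker lists and the rules below were chosen with earlier results of these data known, and support nothing by themselves. Named are the 12 highest and 12 lowest called protein-coding genes with non-overlapping groups, excluding predicted Gm and Rik genes, up to 3 rises and 3 falls in each list (both averaging 1 or more in log2 CPM), 20 genes by name, and marker genes of cell types. Alternatives were other scalings, filters, tools (DESeq2 1.42.0, limma-voom 3.58.1), a GC correction by a spline with 5 degrees of freedom, a replicate block, the compared libraries alone and each library left out. Some named genes are not reported here, and counts over lists include them.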

Additional observations from a re-analysis of the deposited data

Results flagged for a closer look

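For 8 of the named genes FcMR and isotype were called in opposite directions against untreated at 24 h. A called difference between FcMR and isotype in the same fit was a condition of this choice and is no further result. No share of all genes is given beside the count. Only named genes with an FcMR change of at least 2-fold and an average log2 CPM of at least 1 were considered. Clec4e, which encodes Mincle, had log2 fold changes of 3.04 with FcMR and −1.08 with isotype, a difference of 4.12 (SE 0.16, edgeR adjusted p = 8.24e-12). Ptgs2, the inducible cyclooxygenase, had 3.30 and −0.69, a difference of 3.99 (SE 0.22, edgeR adjusted p = 4.46e-10). For Dgat2, of triglyceride synthesis, the values were 2.30 and −1.13, and the difference was 3.44 (SE 0.29, edgeR adjusted p = 8.74e-08). The arginine importer gene Slc7a2 had 1.77 and −1.48, with a difference of 3.25 (SE 0.12, edgeR adjusted p = 3.69e-12).

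The other 4 were lower with FcMR and higher with isotype. Fabp4, a fatty acid carrier, had −1.16 and 0.40, a difference of −1.55 (SE 0.12, edgeR adjusted p = 4.80e-08). Nlrp1b, an inflammasome sensor, had −1.13 and 0.76, and the difference was −1.89 (SE 0.19, edgeR adjusted p = 1.00e-06). For the monocyte attractant Ccl2 the values were −1.23 and 0.72, with a difference of −1.94 (SE 0.26, edgeR adjusted p = 2.44e-05). Hpgds, the prostaglandin D synthase, had −1.63 and 0.80, a difference of −2.42 (SE 0.27, edgeR adjusted p = 2.96e-06). In each of the 8 genes the FcMR and isotype libraries did not overlap, which the choice of genes by a called difference favours. Both changes of a gene share the untreated libraries.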

How the results depend on the processing

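The 6918 genes called between FcMR 24 h and untreated became 5866 to 8350 under the other scalings, filters, tools, corrections and the fit of the compared libraries alone, and 6075 to 7293 with 1 of the 6 libraries left out. The 2813 genes called between FcMR 24 h and isotype 24 h were 1995 to 4150 under the same alternatives, except that the replicate block with GC correction called 4272 (2084 higher and 2188 lower), and 2091 to 3135 with 1 library left out. GC correction on its own gave 8241 and 4150 genes for these comparisons. Without both libraries of extreme GC tilt, an alternative chosen after seeing the data, 5559 genes were called against untreated. Among genes of the lists or named by the rules, 530 were called against untreated and 347 against isotype. Of these, 435 and 258 lost the call under no alternative that tested them. Reversals of direction, seen for 2 of the 530 under some alternative, were counted apart.

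Replicate numbers are shared by the groups, but no label ties them to an animal or culture. Deviations of same-numbered FcMR 24 h and untreated libraries from their group means correlated at 0.003, 0.278 and 0.002 across genes, so the numbers were not taken as pairs. A replicate block gave 7116 genes (3513 higher, 3603 lower) against untreated and 2911 against isotype.

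The depth of the shallowest library limits lowly expressed genes, as 3 counts there equal 0.377 CPM. Kallisto counts are estimates, so near-identical genes share reads, and 56 of the 206 named genes overlap a gene on the opposite strand. Granulocyte markers and GC tilt moved with the comparison, and their part was not tested. Culture time and FcMR cannot be told apart against untreated.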
